A study of Mus musculus with 4 samples.

Results

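The STAT and SOCS families were followed through 9 genes of mouse macrophages: the transcription factor genes Stat2, Stat3, Stat4, Stat5a and Stat6, and the feedback inhibitor genes Socs1, Socs2, Socs3 and Cish. All array probes whose RefSeq accession belongs to one of these symbols were taken, which gave 14 of the 39429 probes on the array. All 14 passed the filter on dim probes, as did 28637 probes in all. No dim member had to be set aside, since each of the 14 had signal clearly over background in knockout and wildtype samples alike on all 4 arrays. Stat3 had 2 probes, Stat6 and Socs2 had 3 each, and the other 6 genes had 1 each.

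The cells were bone marrow cells of male mice aged 6 weeks, cultured for 7 days in GM-CSF (25 ng/ml), a growth factor for myeloid cells, and the question was how loss of Cdk5r1 bears on gene expression at rest and under stimulation. Cdk5r1 encodes p35, which binds and activates the kinase CDK5. The 4 groups were CDK5R1 knockout cells given E. coli lipopolysaccharide (LPS, a cell wall component that activates macrophages) at 100 ng/ml for 6 h, wildtype cells given the same LPS, CDK5R1 knockout cells in the basal state and wildtype cells in the basal state. Each group had 2 samples, and each of the 4 arrays set a knockout sample labelled with Cy5 against a wildtype sample of the same condition labelled with Cy3, from 10 µg of total RNA. The labels give the strain B6.129S4-Cdk5r1tm1Lht/J for both genotypes, and they call the arrays biological replicates without naming animals, so p-values measure the spread between these arrays. The dyes were not swapped, so in a knockout to wildtype ratio the dye and the genotype cannot be told apart, while LPS was compared with basal within 1 dye.

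STAT proteins wait in the cytoplasm until a cytokine receptor and its Janus kinase (JAK) phosphorylate them, and then enter the nucleus as dimers that switch on target genes. SOCS proteins and CISH are made from STAT target genes themselves and shut the receptor and kinase down again, which closes a negative feedback loop. In macrophages LPS acts through Toll-like receptor TLR4, and cytokines released by the stimulated cells, among them interferon beta and interleukins, then engage the JAK-STAT pathway. GM-CSF signals mainly through STAT5.

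Promoter sequences are shown for the 5 genes in which letters known from STAT binding were found. RefSeq promoter windows of build GRCm38.p6, from 250 bases before to 50 bases after an annotated transcript start, matched 8 of the 9 genes in 10 windows. Windows were searched on both strands for TTC and GAA with 3 free bases between them (the gamma-activated site, GAS), for TTC and GAA with 4 free bases (the spacing that STAT6 prefers) and for GAAA and GAAA with 2 free bases (the core of the interferon-stimulated response element, ISRE, which the complex of STAT2 and IRF9 binds). Among all 32851 promoter windows, 8.3% held the first, 6.95% the second and 3.44% the third. Each sequence runs 5′ to 3′ on the strand of its gene, and capitals mark the matches.
Stat2, chr10:128270248-128270547, plus strand: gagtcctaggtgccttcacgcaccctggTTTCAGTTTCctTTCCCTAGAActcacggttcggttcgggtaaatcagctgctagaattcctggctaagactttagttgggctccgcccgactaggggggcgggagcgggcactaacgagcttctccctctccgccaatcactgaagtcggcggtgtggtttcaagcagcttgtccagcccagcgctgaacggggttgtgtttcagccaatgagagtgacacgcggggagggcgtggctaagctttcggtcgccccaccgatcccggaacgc
Stat4, chr1:52007990-52008289, plus strand: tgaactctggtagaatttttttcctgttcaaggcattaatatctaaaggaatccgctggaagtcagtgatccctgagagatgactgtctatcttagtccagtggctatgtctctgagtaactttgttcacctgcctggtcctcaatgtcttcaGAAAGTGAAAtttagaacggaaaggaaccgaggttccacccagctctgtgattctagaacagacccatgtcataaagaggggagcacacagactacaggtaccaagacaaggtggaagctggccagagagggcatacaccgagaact
Socs1, chr16:10785487-10785786, minus strand: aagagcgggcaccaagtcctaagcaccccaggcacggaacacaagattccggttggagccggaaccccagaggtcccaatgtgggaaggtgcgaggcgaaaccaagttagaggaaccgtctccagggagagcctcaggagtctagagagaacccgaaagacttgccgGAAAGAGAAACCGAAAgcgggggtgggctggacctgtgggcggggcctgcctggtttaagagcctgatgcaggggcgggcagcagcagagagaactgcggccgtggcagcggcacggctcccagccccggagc
Socs3, chr11:117969317-117969616, minus strand: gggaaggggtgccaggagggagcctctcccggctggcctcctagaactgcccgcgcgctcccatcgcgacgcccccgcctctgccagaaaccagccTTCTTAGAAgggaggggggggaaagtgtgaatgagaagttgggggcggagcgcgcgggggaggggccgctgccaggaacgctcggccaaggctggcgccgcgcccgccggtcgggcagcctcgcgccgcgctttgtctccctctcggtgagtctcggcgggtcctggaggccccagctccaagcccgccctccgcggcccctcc
Cish, chr9:107296409-107296708, plus strand: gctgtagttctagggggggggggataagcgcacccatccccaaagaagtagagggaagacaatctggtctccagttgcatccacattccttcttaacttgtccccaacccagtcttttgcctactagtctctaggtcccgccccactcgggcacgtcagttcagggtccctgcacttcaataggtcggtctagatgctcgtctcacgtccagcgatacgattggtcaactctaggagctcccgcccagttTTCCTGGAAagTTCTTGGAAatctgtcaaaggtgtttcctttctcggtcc

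Counting from 1 at the first transcribed base, Stat2 held an ISRE core on the opposite strand at -222 to -213 and a spacing-4 match at -210 to -201. Stat4, in 1 of its 2 windows, held an ISRE core at -97 to -88. Socs1 held a pair of overlapping ISRE cores at -83 to -74 and -77 to -68. Socs3 had 1 GAS at -154 to -146, and Cish had 2, at 1 to 9 and at 12 to 20, on the transcribed side of the start. Stat3, Stat5a and Stat6 held none of the 3 patterns in their windows. A match is a run of letters and not a measured binding site, and the window covers only a small piece of each gene's regulatory sequence.

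**Figure D1:**
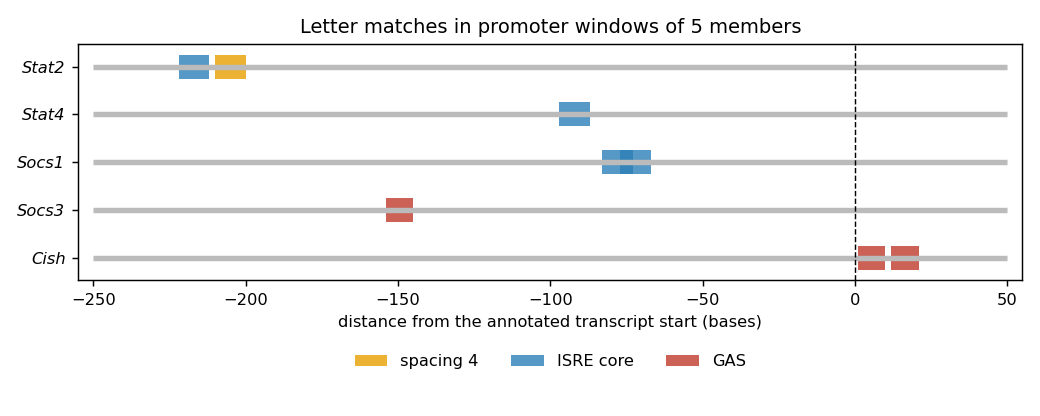
Position of the letter matches in the promoter windows of Stat2, Stat4, Socs1, Socs3 and Cish, in bases from the annotated transcript start (dashed line); grey bars are the windows and coloured boxes the matches. The matches of Stat2, Stat4, Socs1 and Socs3 lie before the start, and both of Cish lie just after it.

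The arrays carried 43020 probe spots each, of which 62.1% to 65.0% were well above background in the knockout channel and 68.3% to 71.0% in the wildtype channel, and no probe spot was saturated. Cdk5r1 itself had 2 probes, whose log2 ratio of knockout over wildtype was -2.55 and -2.29, and -2.00 and -2.03, on the LPS arrays. On the basal arrays the same probes gave -0.37 and -0.59, and -0.47 and -0.51, so the knockout channel read lower for the targeted gene throughout. The sources used here do not say whether these probes lie inside the deleted sequence. Of 10 macrophage markers, 9 were on the array, and all 9 were well above background in every group. Markers of other cells were present too: of 8 granulocyte genes, 5 were lower in the knockout in each condition and none was higher, and the log2 of their summed level was 16.49 to 16.55 in knockout against 18.04 to 18.17 in wildtype samples under LPS. In the basal state that sum was 15.58 to 16.27 in knockout against 16.70 to 17.37 in wildtype samples. The summed dendritic cell markers, with Xcr1 not above background, were 19.47 to 19.51 in knockout against 19.06 to 19.13 in wildtype samples under LPS, and 19.17 to 19.19 against 18.78 to 19.00 in the basal state. Of the 7 tested, Cd74, H2-Ab1 and Dpp4 were higher in the knockout under LPS, Itgax was lower at -0.59 and 3 did not pass, among them Zbtb46 at 0.0825, and in the basal state 1 was higher, H2-Ab1. T and NK cell markers, the cells best known for Stat4, summed to 11.99 in both knockout samples against 11.92 to 11.97 in wildtype samples under LPS. In the basal state they summed to 11.68 to 11.77 against 11.56 to 11.88. Of these markers 0 of 9 passed the threshold in either comparison of the genotypes (limma, threshold 0.05, adjusted over all probes). Not all of the 9 were well above background. Under LPS 5 were so on both arrays in knockout and 7 in wildtype samples, and in the basal state 5 and 8. The part that these shifts between cell types play in the values below was not tested, and in such bulk RNA fewer cells of a type and less RNA per cell cannot be told apart. Beside these marker counts, 11.5% of all tested probes passed between the genotypes under LPS and 4.5% in the basal state.

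LPS raised most of the STAT and SOCS genes in both genotypes. By its brightest probe, 6 of the 9 genes rose in knockout cells and the same 6 in wildtype cells: Stat2, Stat3, Stat4, Stat5a, Socs1 and Socs3. None fell, and Stat6, Socs2 and Cish did not pass by that probe. Over all probes, 10 of 14 rose in knockout cells, where 42.1% of all tested probes passed (19.2% rose and 22.9% fell). In wildtype cells 8 of 14 rose, where 41.9% of all tested probes passed (18.4% rose and 23.5% fell). The median log2 change of the 14 probes was 1.33 in knockout cells and 1.21 in wildtype cells, beside -0.021 and -0.013 over all tested probes. These changes are differences of normalised log2 levels between LPS and basal samples within 1 channel, tested with limma and adjusted over all 28637 tested probes, with n = 2 and 2.

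**Figure D2:**
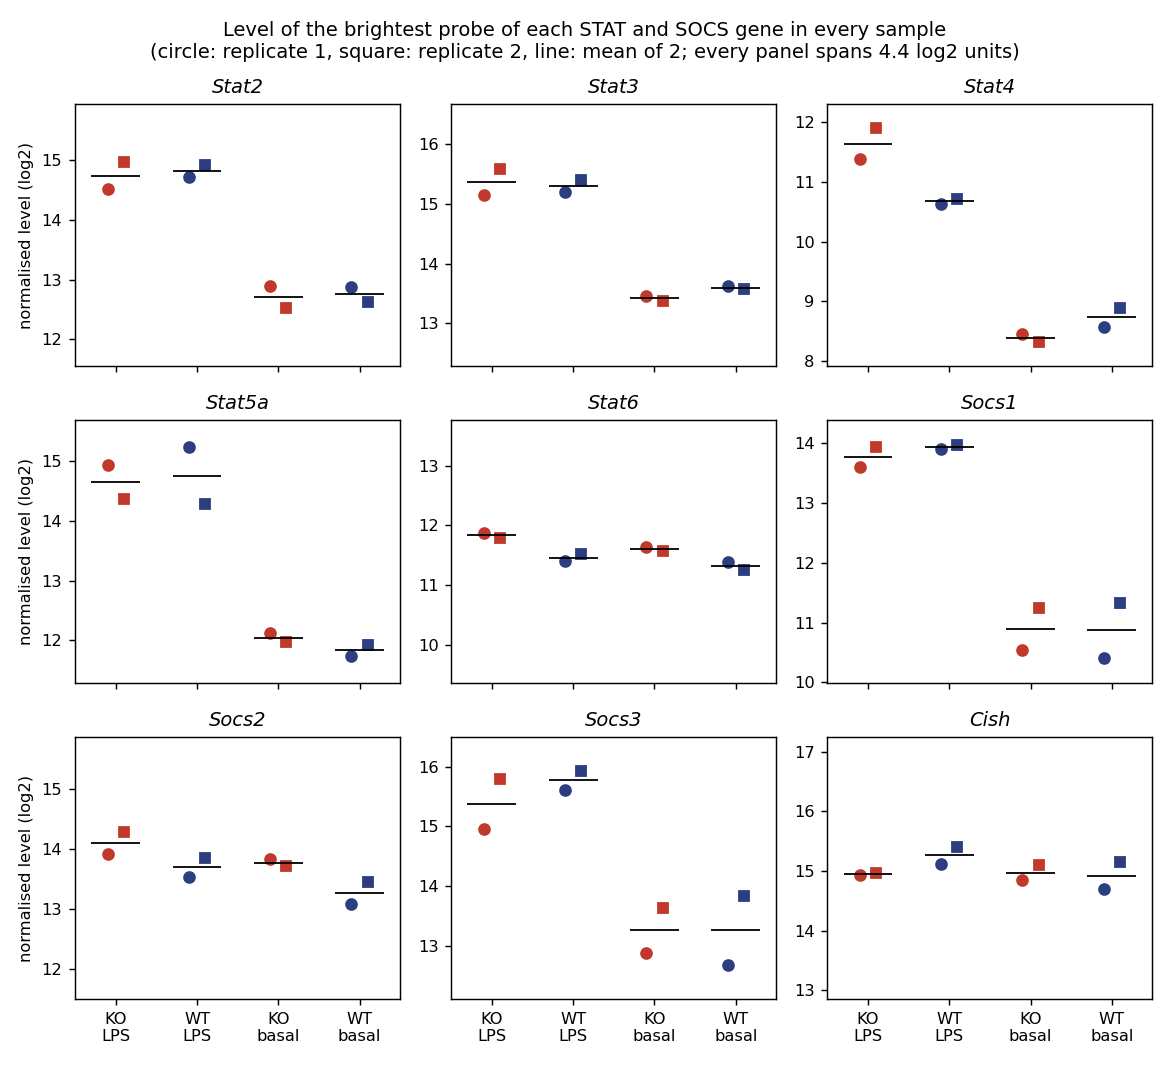
Normalised log2 level of the brightest probe of each gene (vertical axis) in the 4 groups, knockout in red and wildtype in blue, with both replicates as points and the mean as a line. Stat2, Stat3, Stat4, Stat5a, Socs1 and Socs3 stand well above their basal samples under LPS in both genotypes, while Stat6, Socs2 and Cish did not pass by this probe.

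Stat2, part of the complex that answers type I interferon, had log2 levels of 14.52 and 14.96 in knockout and 14.73 and 14.91 in wildtype samples under LPS. Its basal levels were 12.89 and 12.53 in knockout and 12.89 and 12.63 in wildtype samples. The LPS and basal samples were far apart, while the genotypes overlapped in both conditions. The rise was 2.03 ± 0.21 in knockout and 2.06 ± 0.14 in wildtype cells (log2, SE; limma adjusted p = 0.00332 and 0.00101), which is 4.08-fold and 4.18-fold.

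Stat3, the factor that carries the signals of IL-6 and IL-10, was measured by a bright probe spotted 10 times. That probe had log2 levels of 15.15 and 15.58 in knockout and 15.19 and 15.40 in wildtype samples under LPS, against basal levels of 13.46 and 13.38 in knockout and 13.63 and 13.57 in wildtype samples. It rose by 1.95 ± 0.17 in knockout and 1.70 ± 0.11 in wildtype cells (limma adjusted p = 0.00228 and 0.00101), with the genotypes overlapping under LPS. The other Stat3 probe, which the files tie to another transcript (NM_011486 rather than NM_213659), had 10.72 and 11.18 in knockout and 10.28 and 10.66 in wildtype samples under LPS. Its basal levels were 8.34 and 8.09 in knockout and 8.33 and 8.50 in wildtype samples. Its rise was 2.74 ± 0.20 in knockout and 2.05 ± 0.16 in wildtype cells (limma adjusted p = 0.00143 and 0.00142).

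Stat4, the factor through which IL-12 acts in T and NK cells, had log2 levels of 11.38 and 11.90 in knockout and 10.64 and 10.72 in wildtype samples under LPS. Its basal levels were 8.45 and 8.33 in knockout and 8.58 and 8.88 in wildtype samples. Every knockout sample was above every wildtype sample under LPS, and every knockout sample was below every wildtype sample in the basal state. In the scanner's own units the spot read 2733 and 3887 in the knockout channel and 1073 and 1224 in the wildtype channel under LPS, and 479 and 447 against 343 and 475 in the basal state, over local backgrounds of 48.0 to 51.5 in the knockout and 23.0 to 27.5 in the wildtype channel. LPS raised Stat4 by 3.25 ± 0.20 in knockout and 1.94 ± 0.14 in wildtype cells (limma adjusted p = 0.00107 and 0.00111), which is 9.51-fold and 3.85-fold.

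Stat5a, a factor downstream of GM-CSF and the IL-2 family, had log2 levels of 14.94 and 14.36 in knockout and 15.23 and 14.27 in wildtype samples under LPS, against basal levels of 12.12 and 11.97 in knockout and 11.74 and 11.92 in wildtype samples. It rose by 2.60 ± 0.22 in knockout and 2.92 ± 0.33 in wildtype cells (limma adjusted p = 0.00199 and 0.00339). In both genotypes replicate 1 was the higher of the LPS samples, and the genotypes overlapped there.

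Stat6, the factor of IL-4 and IL-13 signalling, moved little. Its brightest probe had log2 levels of 11.87 and 11.79 in knockout and 11.41 and 11.51 in wildtype samples under LPS, against basal levels of 11.64 and 11.57 in knockout and 11.38 and 11.26 in wildtype samples. The change with LPS was 0.22 ± 0.10 in knockout and 0.14 ± 0.10 in wildtype cells (limma adjusted p = 0.148 and 0.341). The 2 dimmer Stat6 probes lay between 8.60 and 8.84 in knockout and between 8.62 and 8.82 in wildtype samples under LPS, and between 8.10 and 8.44 in knockout and between 8.26 and 8.46 in wildtype basal samples. They passed in knockout cells, at 0.37 ± 0.10 and 0.46 ± 0.10 (limma adjusted p = 0.0404 and 0.0221), and not in wildtype cells, at 0.36 ± 0.12 for each (limma adjusted p = 0.0725 and 0.0615). The difference between the genotypes was 0.015 for the first and 0.10 for the second (limma adjusted p = 0.979 and 0.848), and both calls in knockout cells were lost when either basal array was left out.

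Among the inhibitors, Socs1, which blocks JAK kinases and curbs interferon signalling, had log2 levels of 13.61 and 13.94 in knockout and 13.91 and 13.97 in wildtype samples under LPS. Its basal levels were 10.54 and 11.24 in knockout and 10.41 and 11.33 in wildtype samples, with the higher value on array 2 in both genotypes. It rose by 2.89 ± 0.27 in knockout and 3.07 ± 0.31 in wildtype cells (limma adjusted p = 0.00259 and 0.00260), which is 7.41-fold and 8.37-fold. The genotypes overlapped in both conditions.

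Socs3, which binds the IL-6 receptor chain gp130 and curbs STAT3, had log2 levels of 14.96 and 15.79 in knockout and 15.61 and 15.93 in wildtype samples under LPS. Its basal levels were 12.89 and 13.63 in knockout and 12.68 and 13.84 in wildtype samples. Array 2 was higher than array 1 in each of the 4 groups, by 0.31 to 1.17. The rise with LPS was 2.11 ± 0.38 in knockout and 2.51 ± 0.40 in wildtype cells (limma adjusted p = 0.0131 and 0.00876), and without basal replicate 1 the knockout value was 1.74 with an adjusted p of 0.0658.

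Socs2 and Cish, feedback genes of the growth hormone and STAT5 pathways, were high in every group. The brightest Socs2 probe had log2 levels of 13.91 and 14.28 in knockout and 13.54 and 13.85 in wildtype samples under LPS, against basal levels of 13.83 and 13.71 in knockout and 13.08 and 13.46 in wildtype samples. Its change with LPS was 0.33 ± 0.16 in knockout and 0.42 ± 0.18 in wildtype cells (limma adjusted p = 0.172 and 0.129). Of the other 2 Socs2 probes, A_55_P1992838 passed in both genotypes, at 0.71 ± 0.16 in knockout and 0.72 ± 0.19 in wildtype cells (limma adjusted p = 0.0249 and 0.0372), and A_55_P1992834 did not, at 0.37 and 0.39. Cish had log2 levels of 14.93 and 14.97 in knockout and 15.12 and 15.40 in wildtype samples under LPS, against basal levels of 14.85 and 15.09 in knockout and 14.70 and 15.15 in wildtype samples. Its LPS and basal samples overlapped in both genotypes, with a change of -0.018 ± 0.13 in knockout and 0.34 ± 0.19 in wildtype cells (limma adjusted p = 0.923 and 0.228).

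**Figure D3:**
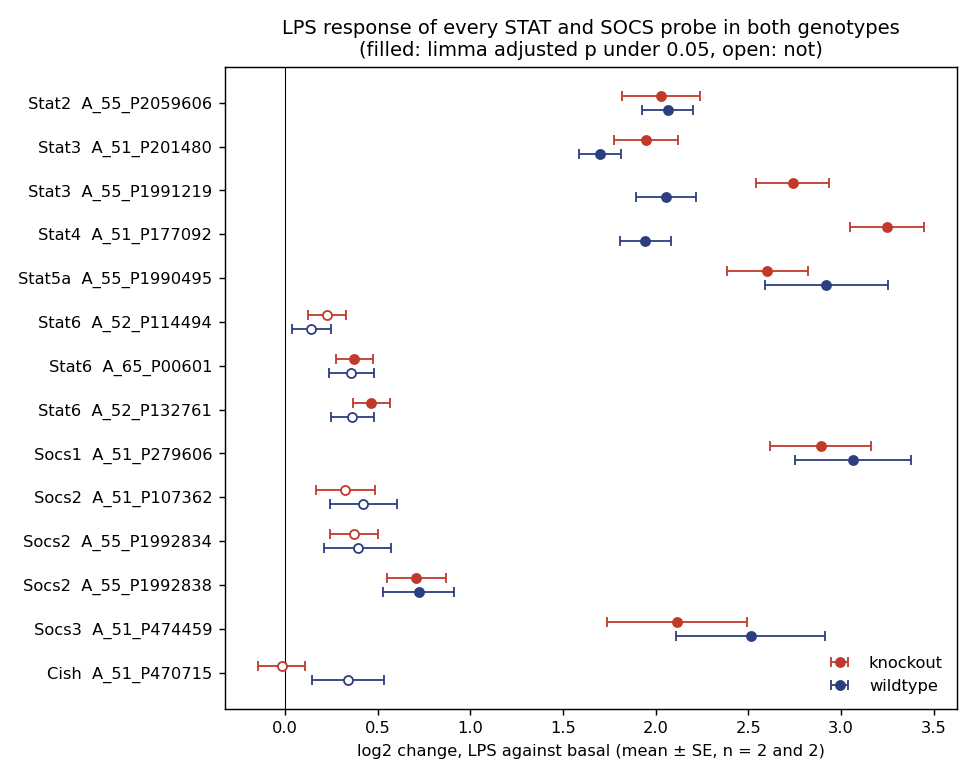
Log2 change of every probe between LPS and basal samples (mean ± SE, n = 2 and 2), with knockout cells in red above wildtype cells in blue and filled points for a limma adjusted p under 0.05. The probes of Stat2, Stat3, Stat4, Stat5a, Socs1 and Socs3 lie between 1.70 and 3.25, and those of Stat6, Socs2 and Cish between -0.018 and 0.72.

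Between the genotypes the fitted log2 ratios of the 14 probes lay between -0.40 and 0.96 under LPS and between -0.34 and 0.50 in the basal state. Under LPS 3 of the 14 probes passed, all higher in the knockout, where 11.5% of all tested probes passed (6.65% higher and 4.83% lower). They were the single Stat4 probe, the brightest Stat6 probe and the dimmer Stat3 probe, so by brightest probe 2 of the 9 genes, Stat4 and Stat6, were higher. In the basal state 0 of 14 probes passed in limma, with 6 at an unadjusted p under 0.05, where 4.5% of all tested probes passed (3.09% higher and 1.42% lower). The median log2 ratio of the 14 probes was 0.075 under LPS and 0.030 in the basal state, beside -0.0029 and 0 over all tested probes.

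Stat4 showed the largest ratio among the 14 probes under LPS. Its log2 ratio of knockout over wildtype was 0.74 and 1.18 on the LPS arrays and -0.13 and -0.56 on the basal arrays, so it was positive on both LPS arrays and negative on both basal arrays. The fitted ratio was 0.96 ± 0.14 under LPS (limma adjusted p = 0.00747), a 1.95-fold higher level in knockout cells, and -0.34 ± 0.14 in the basal state (limma adjusted p = 0.242). The call under LPS was lost without LPS replicate 2, at 0.74, and with the scanner's processed signals, at 1.02 with a limma adjusted p of 0.0561. It was also lost with the authors' table. The change of the knockout effect with LPS, which is also the difference between the LPS responses of the genotypes, was 1.30 ± 0.19 with a 95% interval of 0.84 to 1.77 (limma adjusted p = 0.0643). It did not pass the threshold.

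For Stat3, the dimmer probe was higher in the knockout on both LPS arrays, with log2 ratios of 0.44 and 0.52, and gave 0.0019 and -0.41 on the basal arrays. The fitted LPS ratio was 0.48 ± 0.11 (limma adjusted p = 0.0338). The bright probe gave -0.042 and 0.18 on the LPS arrays and -0.16 and -0.19 on the basal arrays, with fitted values of 0.070 ± 0.080 and -0.18 ± 0.080 (limma adjusted p = 0.617 and 0.291). Under LPS the 95% interval was 0.23 to 0.73 for the dimmer and -0.12 to 0.26 for the bright probe, and the difference between the 2 probes was not tested. The call of the dimmer probe was lost without either LPS array, with the authors' table and with processed signals, the last at a limma adjusted p of 0.177. Over the 8 to 10 spots of the bright probe that were used on an array, log2 ratios had an SD of 0.017 to 0.020, less than the gap between the array means under LPS and close in size to that in the basal state.

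The brightest Stat6 probe was higher in the knockout on all 4 arrays, with log2 ratios of 0.46 and 0.28 under LPS and 0.26 and 0.31 in the basal state. It passed under LPS at 0.37 ± 0.076 (limma adjusted p = 0.0272) and missed in the basal state at 0.28 ± 0.076 (limma adjusted p = 0.105). The LPS call was lost without either LPS array and with the scanner's processed signals (limma adjusted p = 0.0738). It was also lost with the authors' table and with the replicate number as a block. The dimmer Stat6 probes gave 0.080 and -0.12 under LPS and 0.065 and -0.22 in the basal state, none past the threshold. The 3 Stat6 probes therefore did not share a direction.

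Socs2 was higher in the knockout on all 4 arrays by all 3 of its probes, without passing. The brightest had log2 ratios of 0.38 and 0.43 on the LPS arrays and 0.75 and 0.25 on the basal arrays, and the SD over its 10 spots per array was at most 0.037. Its fitted ratios were 0.40 ± 0.12 under LPS and 0.50 ± 0.12 in the basal state (limma adjusted p = 0.0733 and 0.0728), with 95% intervals of 0.13 to 0.68 and 0.22 to 0.78. The other Socs2 probes gave 0.32 and 0.35 under LPS and 0.34 and 0.36 in the basal state (adjusted p = 0.12 to 0.24). Without basal replicate 2, where all 3 probes read lowest, all 3 passed in the basal state, at 0.63 to 0.75.

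Socs3 and Cish were lower in the knockout on both LPS arrays, without passing. Socs3 had log2 ratios of -0.66 and -0.14 under LPS and 0.21 and -0.21 in the basal state, with a fitted LPS value of -0.40 ± 0.15 (limma adjusted p = 0.129). Cish had -0.19 and -0.43 under LPS and 0.15 and -0.056 in the basal state, with a fitted LPS value of -0.31 ± 0.090 (limma adjusted p = 0.0727). Socs1, at -0.16 ± 0.096 under LPS and 0.015 ± 0.096 in the basal state, Stat2, at -0.079 and -0.043, and Stat5a, at -0.10 and 0.21, had arrays on both sides of 0 in at least 1 condition and did not pass.

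**Figure D4:**
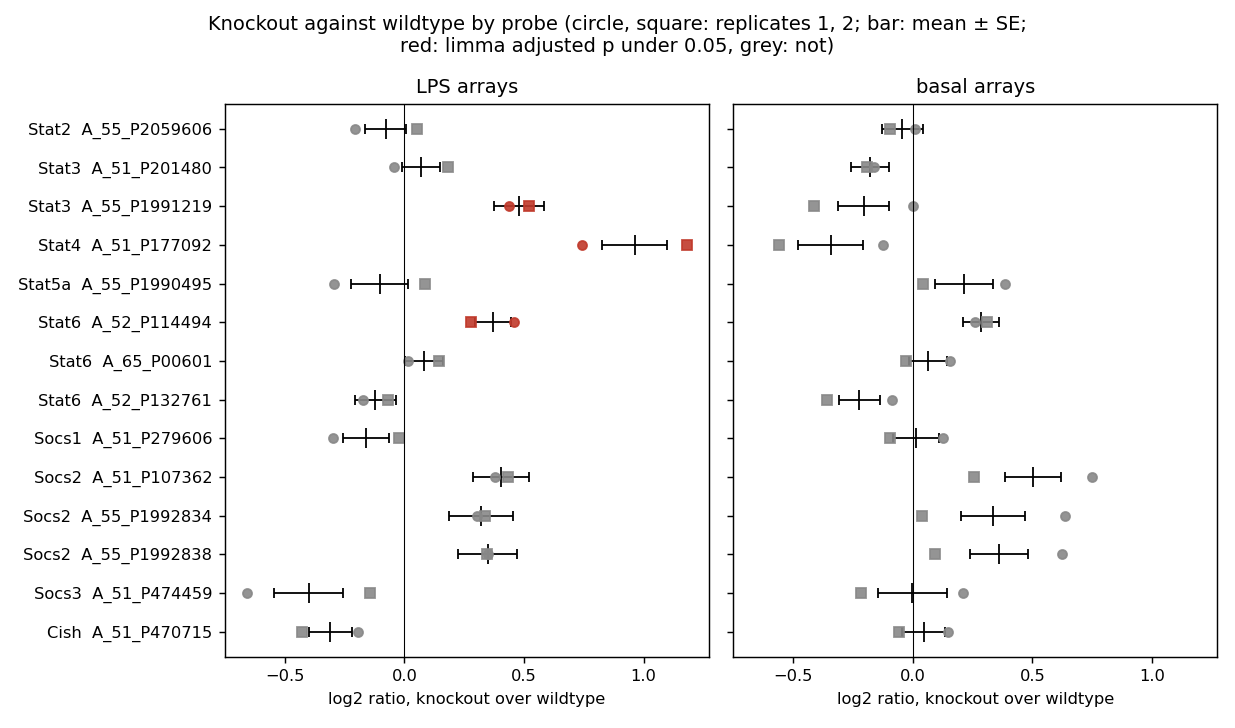
Log2 ratio of knockout over wildtype for every probe on the LPS arrays (left) and the basal arrays (right), with both replicates as points, the fitted mean ± SE as a bar and red for a limma adjusted p under 0.05. Under LPS the Stat4 probe lies at 0.74 and 1.18, a Stat3 and a Stat6 probe are the other red ones, and no probe is red in the basal state.

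The change of the knockout effect between conditions passed for 0 of the 14 probes in limma, with 3 at an unadjusted p under 0.05, where 0.402% of all tested probes passed. Those 3 were Stat4, the dimmer Stat3 probe at 0.68 ± 0.15 (adjusted p = 0.164) and Cish at -0.36 ± 0.13 (adjusted p = 0.401). They are named after their values were seen. For Stat2 the 95% interval ran from -0.32 to 0.25, and for Socs2 by the brightest probe from -0.49 to 0.30.

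Stat3, Stat5a and Socs3 lie on chromosome 11, as Cdk5r1 does. Of 1763 tested probes placed on chromosome 11, 13.6% passed between the genotypes under LPS and 7.15% in the basal state, against 11.9% and 4.28% of 19035 probes placed elsewhere. None of the brightest probes of these 3 genes passed, the dimmer Stat3 probe did under LPS, and any part of the shared chromosome in their values was not tested.

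The ratios of bright genes depend on how the dyes were set against each other. With loess, the brightest 10% of the tested probes, which hold 7 of the 14, had a median log2 ratio between -0.028 and -0.0019 on the 4 arrays. With the arrays only centred on their medians, that median was 0.28 to 0.51, and 8 of the 14 probes passed under LPS and 6 in the basal state, all higher in the knockout. Under that scaling Stat2, Stat5a, Socs1, Socs3 and Cish turned positive under LPS, so the direction of these genes under LPS rests on the loess step.

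The other genes of the pathway were read through lists, each gene by its brightest probe. Beside the counts below, 11.5% of all tested probes passed between the genotypes under LPS and 4.5% in the basal state. The change between conditions passed for 0.402%, and LPS against basal for 42.1% in knockout and 41.9% in wildtype cells. Of 19 measured cytokine ligands that signal through JAKs, 3 were higher and 4 lower in the knockout under LPS, with Il10, an anti-inflammatory cytokine that acts through STAT3, at 1.91 ± 0.067, and Il12a and Il23a, subunits of IL-12 and IL-23, at -0.55 ± 0.073 and -0.51 ± 0.079 (limma adjusted p = 3.30e-05, 0.00587 and 0.0103). Il10 read 9.74 and 10.72 in knockout and 7.84 and 8.81 in wildtype samples under LPS while its basal samples of both genotypes did not rise clearly over background. Of the 19 ligands 0 passed in the basal state. With LPS 14 rose in knockout and 15 in wildtype cells and none fell, led by Il6, the cytokine that acts through STAT3, at 10.02 in knockout and 10.31 in wildtype cells. Il12b, and in the target lists below Mx1, Mx2 and Ear11, were not matched to a tested probe and are not given.

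Among all tested probes, 6.65% were higher in the knockout under LPS and 3.09% in the basal state. Of 26 receptor genes, 3 were higher under LPS and 2 in the basal state, and none was lower. Under LPS these were Il2ra at 0.75 ± 0.18, Il15ra at 0.57 ± 0.091 and Il12rb2, a chain of the IL-12 receptor upstream of STAT4, at 0.44 ± 0.086 (limma adjusted p = 0.0426, 0.0116 and 0.0230), and in the basal state Il15ra at 0.73 and Il27ra at 0.35. The other Il15ra probe gave -0.036 under LPS and -0.17 in the basal state without passing, while the other Il12rb2 probe gave 0.57 under LPS and passed. With LPS 12 receptors rose and 7 fell in knockout cells and 9 rose and 5 fell in wildtype cells, with Ifngr1 at -2.70 in knockout and -2.57 in wildtype cells and Il6ra at -3.61 in each.

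The 4 JAK kinases did not pass between the genotypes in either condition. With LPS Jak2 rose by 0.69 ± 0.12 in knockout and 0.79 ± 0.18 in wildtype cells and Jak3 by 0.61 ± 0.11 in knockout and 0.41 ± 0.12 in wildtype cells, while Tyk2 passed in wildtype cells at 1.00 ± 0.23 and missed in knockout cells at 1.07 ± 0.33 (limma adjusted p = 0.0565). Of 5 other STAT and SOCS genes, 1 rose and 2 fell with LPS in each genotype. Stat5b rose by 1.58 ± 0.12 in knockout and 1.73 ± 0.15 in wildtype cells, while Socs6 fell by 1.00 in knockout and 1.20 in wildtype cells and Socs5 fell by 0.77 in knockout and 0.56 in wildtype cells. Between the genotypes 1 of the 5 passed, Stat5b in the basal state at 0.40 ± 0.072 (limma adjusted p = 0.0274), with its other probe at 0.20 without passing. Of 12 other brakes on the pathway, Usp18, which curbs the type I interferon receptor, was lower in the basal state at -0.79 ± 0.076 (limma adjusted p = 0.00248), and the phosphatases Ptpn1 and Ptpn6 and the adaptor Sh2b3 were lower under LPS at -0.63, -0.41 and -0.42. The other Ptpn1 probe gave 0.072 under LPS without passing. For Ptpn2, whose brightest probe did not pass, a dimmer probe was higher in the knockout. It gave 0.30 under LPS and 0.36 in the basal state (limma adjusted p = 0.0368 and 0.0347). A further Ptpn2 probe gave -0.0098 and 0.026 without passing. With LPS Usp18 rose by 6.23 in knockout and 5.70 in wildtype cells.

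Target genes were listed by STAT, and whether a STAT drove the change of a listed gene was not tested. Of 20 interferon-stimulated genes, targets of the STAT2 complex, 14 were lower and none higher in the basal knockout, with a list median of -0.63. Rtp4 and Ifi44 were both at -1.90 and Oas2 at -1.37, beside Stat2 at -0.043, which did not pass. Rtp4 read 10.58 and 8.52 in knockout against 12.16 and 10.74 in wildtype basal samples. All 20 rose with LPS in each genotype, with a median of 5.95 in knockout and 4.64 in wildtype cells. Under LPS 2 were higher and 2 lower, with Oasl1 at 0.34, Ifi44 at -0.86 and Xaf1 at -0.95, although another Xaf1 probe passed the other way, at 6.56 under LPS and 4.27 in the basal state. The knockout effect differed between conditions for 5 of the 20, all higher under LPS than in the basal state, led by Oasl2 at 1.54, Oas2 at 1.14 and Oasl1 at 1.05 (limma adjusted p = 0.0237, 0.0218 and 0.0103).

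Of 14 STAT3 targets 2 were higher in the knockout under LPS, Nfil3 at 0.56 ± 0.10 and Vegfa at 0.49 ± 0.10, and 0 passed in the basal state. With LPS 9 rose in each genotype, with Tnfaip3 at 4.69 in knockout and 4.51 in wildtype cells and Il1rn, the IL-1 receptor antagonist, at 4.16 in knockout and 3.71 in wildtype cells, and 3 fell in knockout and 4 in wildtype cells. Of 9 STAT5 targets 2 were higher and 1 lower under LPS, Il2ra at 0.75, Bcl6 at 0.45 and Id1 at -0.98, and 7 rose with LPS in each genotype, led by the cyclin gene Ccnd2 at 4.76 in knockout and 4.69 in wildtype cells. Of 14 STAT6 targets 2 were higher and 2 lower under LPS, led by Retnla at 1.89 ± 0.21, the chemokine gene Ccl24 at 1.59 ± 0.15 and Chil3 at -1.32 ± 0.12 (limma adjusted p = 0.00274, 0.00165 and 0.00167). With LPS 6 of them fell in each genotype, among them Pparg at -3.51 in knockout and -3.27 in wildtype cells, and 2 rose in knockout and 3 in wildtype cells, led by Ccl22 at 5.23 in knockout and 5.14 in wildtype cells. In the basal state 1 of the 14, Mrc1, was lower at -0.38.

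**Figure D5:**
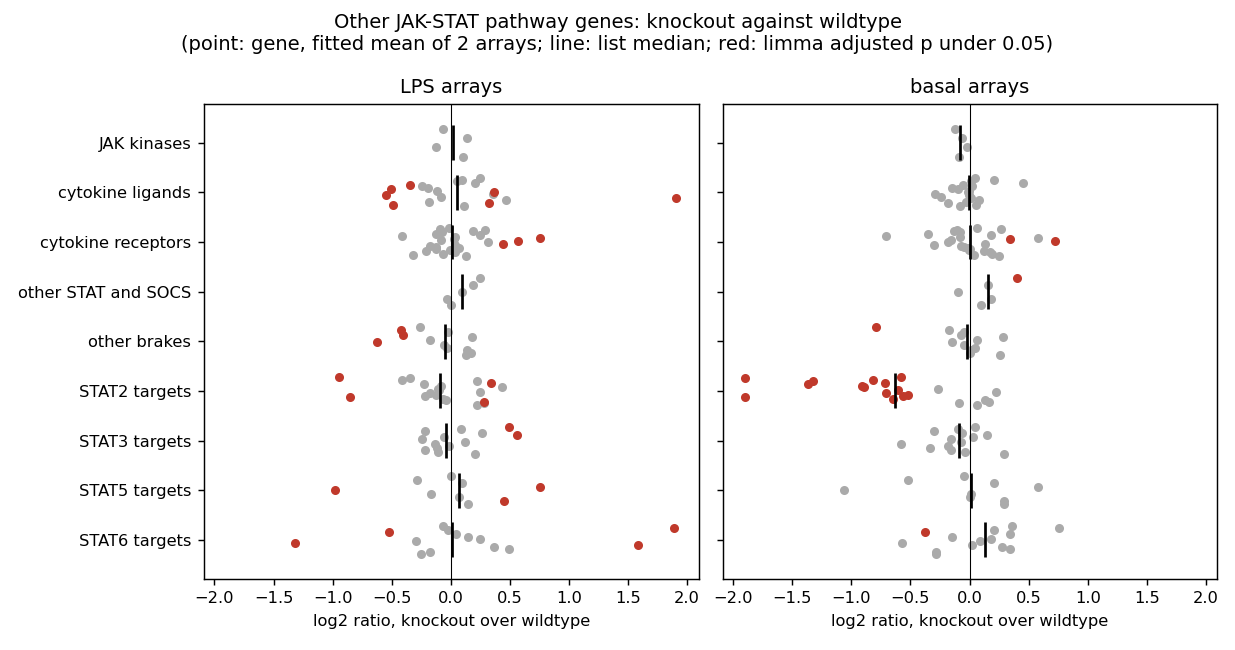
Log2 ratio of knockout over wildtype for the genes of each pathway list (1 point a gene, fitted mean of 2 arrays) on the LPS arrays (left) and the basal arrays (right), with the list median as a line and red for a limma adjusted p under 0.05. The interferon targets lie to the left in the basal state, with 14 of 20 red, while the JAK kinases lie near 0 in both.

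Genes with the most similar pattern were sought over the 8 channel levels among 13068 genes well above background throughout, by the root mean square difference after each probe's own mean was subtracted. The nearest were Asb13 to Stat2 at 0.079, Fbxw17 to Stat3 at 0.068, Serpinc1 to Stat4 at 0.20, Nr4a3 to Stat5a at 0.11, and Sgca to Stat6 at 0.044 log2 units. For the inhibitors they were S1pr3 to Socs1 at 0.11, Gm20867 to Socs2 at 0.12, AA467197 to Socs3 at 0.22 and Slc6a9 to Cish at 0.078. These are descriptions over 8 levels from 4 arrays.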

How the data were processed

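The deposited scanner files hold the median intensity of every spot in both channels with its local background intensity, made by the authors with Agilent Feature Extraction (11.5.1.1 in the file headers, 9.3.2.1 in the submitters' processing notes). The deposited value table gives the authors' log2 ratios, knockout over wildtype, and they equal those of the scanner's processed signals to within 0.001 after a constant per array. Per the file headers the 4 arrays share 1 slide and 1 scan, so slide and scan gave no batch to block on. Whether the samples shared batches in earlier steps was not examined.

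In limma 3.58.1 (R 4.3.3), normexp with an offset of 50 corrected the background, loess within arrays set the ratios (controls and outlier spots had weight 0) and Aquantile set levels between arrays. Spots of 1 probe were averaged. A probe stayed if either channel rose well above background on 2 or more arrays, and 63 probes without a usable spot on every array were left out. Files name probes by accession only. Accessions were matched without versions to a RefSeq gene table of GRCm38.p6 for 27508 of 39429 probes, and since the array's build is mm9 no probe coordinates are given. One fit of the 4 ratios gave knockout against wildtype in each condition and the change of that effect between conditions, and 1 fit per channel gave LPS against basal. Every adjusted p is two-sided, from limma's eBayes with Benjamini-Hochberg adjustment over 28637 probes, and the procedure was tested on simulated data. The files hold median rather than mean foreground intensities, so medians were used where the design had assumed means.

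Every probe of the 9 genes is described, the brightest probe (highest mean level) stands for a gene, and up to 3 genes with the largest change past the threshold are named per pathway list and comparison. The 9 genes and all lists were chosen with earlier results of these data known. Besides list genes not matched to a tested probe, 1 gene is not reported here. Alternatives were processed signals, the authors' table, other filters and scalings, a replicate block and leaving out each array. With 2 arrays per condition, precision is limited by their number.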

Additional observations from a re-analysis of the deposited data

Results flagged for a closer look

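The change of the knockout effect from the basal state to LPS was tested for each gene described above, as the log2 ratio of knockout over wildtype under LPS minus that in the basal state. It passed for 5 of 20 interferon-stimulated genes: Oasl2 at 1.54, Oas2 at 1.14, Oasl1 at 1.05, Ifi44 at 1.04 and Oas1a at 0.82 (limma adjusted p = 0.0237, 0.0218, 0.0103, 0.0263 and 0.0323, n = 2 arrays per condition). Oas1a is named after its value was seen. Among all tested probes 0.402% passed for this change. Alternatives in processing were read probe by probe only for the STAT and SOCS genes. Whether these calls, and those of Il10 and Ccl24 below, hold under them was not examined. Oasl1 was higher in the knockout under LPS, with log2 ratios of 0.35 and 0.32, and lower in the basal state, at -0.72 and -0.71. Oasl2 had 0.22 and 0.22 on the LPS arrays, which did not pass (limma adjusted p = 0.276), and was lower in the basal state, at -1.07 and -1.57. Oas2 had -0.21 and -0.25 on the LPS arrays and -1.23 and -1.50 on the basal arrays. Oas1a had a fitted ratio of -0.086 under LPS, which did not pass, and -0.91 in the basal state, which did (limma adjusted p = 0.469 and 0.000913). These values are from its brightest probe, and those of its other tested probe are not given here. Ifi44 was lower in the knockout on all 4 arrays, at -0.90 and -0.82 under LPS and at -2.02 and -1.78 in the basal state.

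Il10 changed by 1.90 (limma adjusted p = 0.00112), from log2 ratios of 1.90 and 1.91 on the LPS arrays, and neither genotype had it well above background on the basal arrays, so its basal ratio has no measured level behind it. The chemokine gene Ccl24, on the STAT6 target list, changed by 1.57 (limma adjusted p = 0.0473), with 1.48 and 1.69 on the LPS arrays and 0.35 and -0.30 on the basal arrays.

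Stat4, at 1.30 (limma adjusted p = 0.0643), and the kinase gene Jak3, at 0.20 (limma adjusted p = 0.598), did not pass. They are listed only because every LPS array had a ratio above 0 and every basal array a ratio below 0. Stat4 had 0.74 and 1.18 under LPS and -0.13 and -0.56 in the basal state. Jak3 had 0.059 and 0.22 under LPS and -0.068 and -0.055 in the basal state. This pattern or its reverse was looked for among the probes of the STAT and SOCS genes and of the named list genes. Its share over all probes was not counted, so the pattern alone is a description. With 2 arrays per condition no group was large enough to look for a sample far from the others.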

How the results depend on the processing

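Over 70 results and 787 alternative values, 677 kept their direction and their side of the threshold, 31 lost a call, 40 gained one or moved past it, and 39 turned sign. These alternatives are not independent checks. The filters, the choice of 1 probe per gene and the replicate blocks leave a probe's fitted change as it was, so they could not turn its sign. The authors' table nearly repeats the processed signals. The rise of Stat2, Stat3, Stat4, Stat5a and Socs1 with LPS passed under every alternative run in both genotypes. Knockout against wildtype under LPS had 3 of the 14 probes past the threshold, 0 with processed signals, 0 with the authors' table, 8 with median centring and 0 to 6 without 1 array. The Stat3 and Stat6 calls were lost without either LPS array, and the Stat4 call without LPS replicate 2 (it kept an adjusted p of 0.0491 without LPS replicate 1). In the basal state 0 passed, 6 with median centring and 0 to 3 without 1 array. The change between conditions gave 0, then 1 without the filter, 1 with median centring and 0 to 2 without 1 array. LPS against basal gave 10 in knockout cells, 6 of 9 with 1 probe per gene and 6 to 11 without 1 array, and 8 in wildtype cells, 13 with each array scaled to its 75th percentile and 7 to 8 without 1 array. That scaling moved the median of all probes to 0.34 in knockout and 0.35 in wildtype cells, and turned 12069 calls in knockout cells into 17738 (12691 higher, 5047 lower) and 11990 in wildtype cells into 18750 (13672 higher, 5078 lower). The cause of these moves was not tested beyond the construction of each alternative.

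Replicate numbers are shared by the conditions. For the log2 ratios, the difference of replicate 2 minus replicate 1 was taken for each probe in each condition. Across all tested probes, the basal and LPS differences correlated at r = -0.17. With only 2 pairs of arrays this cannot decide whether same-numbered arrays belong together, and the main fits treated the arrays as unpaired. With the replicate block 2, 0 and 0 of the 14 probes passed for knockout against wildtype under LPS, in the basal state and for the change between them, and 7 passed with LPS in knockout cells and 8 in wildtype cells. Over all probes the change between conditions had 59 calls with the block, against 115 without it. With the crossed pairing, chosen after seeing the data, the first 3 counts were 5, 2 and 1, and over all probes 1953 in the basal state and 325 for the change.

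Over all probes, knockout against wildtype gave 3286 calls under LPS, 1964 with processed signals, 1970 with the authors' table, 6372 with median centring (5361 higher, 1011 lower) and 486 to 3918 without 1 array. In the basal state it gave 1290 calls, 827 with processed signals, 823 with the authors' table, 755 when both channels had to be above background on every array and 5018 with median centring (4282 higher, 736 lower). The change between conditions gave 115, 11 with processed signals, 12 with the authors' table, 27 with the strict filter, 270 with median centring and 7 to 329 without 1 array. LPS against basal gave 4970 to 12012 calls in knockout cells and 6173 to 10872 in wildtype cells without 1 array.

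Values that turned sign did not pass in the report. With median centring, Stat2, Stat5a, Socs1, Socs3 and Cish under LPS became 0.36, 0.33, 0.18, 0.10 and 0.16, Stat2, Stat3 (bright probe) and Socs3 in the basal state 0.20, 0.11 and 0.27, and the change between conditions 0.16 for Stat2 and 0.020 and 0.028 for the dimmer Socs2 probes. With processed signals those 2 became 0.0036 and 0.0062, Socs3 in the basal state 0.042 and Cish with LPS in knockout cells 0.013. With the authors' deposited table they became 0.0052, 0.0078 and, for Socs3, 0.044, and with the 75th percentile Cish became 0.71. Without 1 array, knockout against wildtype under LPS ran from -0.21 to 0.050 for Stat2, -0.042 to 0.18 for bright Stat3 and -0.30 to 0.087 for Stat5a. In the basal state it ran from -0.094 to 0.0077 for Stat2, -0.41 to 0.0019 for dim Stat3, -0.026 to 0.16 for the Stat6 probe A_65_P00601, -0.097 to 0.13 for Socs1, -0.21 to 0.21 for Socs3 and -0.056 to 0.15 for Cish. The change between conditions ran from -0.16 to 0.093 for Stat2, -0.0058 to 0.17, -0.077 to 0.11 and -0.034 to 0.24 for the 3 Stat6 probes, and -0.35 to 0.15, -0.32 to 0.28 and -0.28 to 0.25 for the 3 Socs2 probes. Cish with LPS in knockout cells ran from -0.14 to 0.11.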
